A study of Mus musculus with 2 samples.

Results

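Nanog peaks were examined around 8 genes of the naive pluripotency network, namely Esrrb, Nr5a2, Nr0b1, Tfcp2l1, Tbx3, Prdm14, Zfp42 and Tcl1. The genes were given by name, and a peak was counted for a gene where its centre lay within 100 kb of the transcription start site (TSS), or where the gene had the nearest TSS among protein-coding genes. Together, 28 distinct peaks met one of these conditions, of 8737 distinct peaks in the list. All 28 had one of the 8 genes as the nearest protein-coding gene, and 18 of them also lay within 100 kb. The peaks came from 1 chromatin immunoprecipitation followed by sequencing (ChIP-seq) sample of the mouse line Bruce-4, embryonic stem cells (ESCs) kept in medium with serum and leukaemia inhibitory factor (LIF), precipitated with a rabbit monoclonal antibody against Nanog. The other sample of the series, an input of the same cells without immunoprecipitation, was not analysed here. Neither sample has a replicate, and the list gives positions without any strength, so that no value below carries a replicate error and the number of reads behind a peak cannot be given. A site missing from the list may lie under the threshold of the peak call, and positions below are 1-based on mm10 (GRCm38).

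Naive pluripotency is the state of the pre-implantation epiblast, and it is held in culture by a network of transcription factors in which Nanog, Oct4 and Sox2 act with auxiliary factors. Several of these auxiliary factors can replace or reinforce one another when LIF or other signals are limiting. Esrrb and Nr5a2 are orphan nuclear receptors that bind closely related half-sites, and Nr0b1 (Dax1) is an atypical nuclear receptor that mostly acts as a corepressor. Tfcp2l1, a member of the CP2 family, and Tbx3, a T-box factor, act downstream of LIF and related signals in ESCs. Prdm14 is a zinc finger protein that restrains FGF signalling and de novo DNA methylation, and Zfp42 (Rex1) is a zinc finger protein widely used as a marker of naive cells. Tcl1 is expressed in ESCs as well but is a coactivator of the kinase Akt and has no DNA-binding domain, so that it is a transcription factor gene by the name of the group and not by its own function.

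The sequence at the peak closest to the TSS is shown for Esrrb, Nr5a2, Tfcp2l1, Tbx3 and Zfp42, since these windows carry the positions on which the description below rests. Each is the plus strand of GRCm38 over 300 bp around the peak centre, and capitals mark every copy of the 11 motifs searched. Nr5a2 and Tfcp2l1 are shown in lower case throughout because their closest peak held none of these letters.
Esrrb, chr12:86470951-86471250: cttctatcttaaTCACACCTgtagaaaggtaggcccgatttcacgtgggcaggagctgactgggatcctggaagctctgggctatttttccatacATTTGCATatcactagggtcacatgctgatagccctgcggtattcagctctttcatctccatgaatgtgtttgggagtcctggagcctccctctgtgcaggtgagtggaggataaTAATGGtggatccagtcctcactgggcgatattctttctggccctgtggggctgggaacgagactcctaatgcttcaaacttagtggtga
Nr5a2, chr1:136977698-136977997: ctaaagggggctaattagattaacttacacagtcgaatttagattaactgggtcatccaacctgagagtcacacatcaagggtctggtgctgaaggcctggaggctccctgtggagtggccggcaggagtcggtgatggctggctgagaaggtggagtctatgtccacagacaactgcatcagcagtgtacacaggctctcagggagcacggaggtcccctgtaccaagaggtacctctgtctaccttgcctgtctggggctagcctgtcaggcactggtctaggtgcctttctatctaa
Tfcp2l1, chr1:118626488-118626787: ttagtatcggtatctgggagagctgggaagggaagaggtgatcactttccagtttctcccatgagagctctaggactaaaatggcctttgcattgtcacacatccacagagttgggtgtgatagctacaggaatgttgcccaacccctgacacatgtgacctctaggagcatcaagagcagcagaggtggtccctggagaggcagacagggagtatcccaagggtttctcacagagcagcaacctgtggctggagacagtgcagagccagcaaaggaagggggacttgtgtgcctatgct
Tbx3, chr5:119680000-119680299: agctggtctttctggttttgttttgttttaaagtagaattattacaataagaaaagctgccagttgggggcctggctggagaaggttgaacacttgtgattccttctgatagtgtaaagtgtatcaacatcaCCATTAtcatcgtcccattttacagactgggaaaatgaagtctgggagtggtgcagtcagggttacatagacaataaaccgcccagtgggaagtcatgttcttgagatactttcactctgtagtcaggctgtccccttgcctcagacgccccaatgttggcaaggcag
Zfp42, chr8:43307003-43307302: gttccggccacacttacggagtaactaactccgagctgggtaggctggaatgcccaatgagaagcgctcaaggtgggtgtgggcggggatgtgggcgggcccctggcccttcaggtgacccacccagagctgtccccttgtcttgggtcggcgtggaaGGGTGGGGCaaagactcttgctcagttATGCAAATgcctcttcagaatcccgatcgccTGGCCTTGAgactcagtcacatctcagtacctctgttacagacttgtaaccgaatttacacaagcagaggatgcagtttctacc
The Esrrb window held an Oct octamer, a Nanog core and a Tbx motif, and the Tbx3 window a Nanog core motif. The Zfp42 window held 3 motifs, in the order Klf, Oct octamer and Nr5a2 when read away from the gene.

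Of the 8 genes, 5 had at least 1 peak within 100 kb of the TSS, against 54.8% of all 21755 protein-coding genes (chromosomes 1 to 19 and X). With 62.5% of the genes, this share was near the background and is no property of the group. The same 5 genes had one within 50 kb, against 35.2%. Within 5 kb the share was 3 of 8 (Tfcp2l1, Prdm14 and Zfp42), against 6.25% of all protein-coding genes. As the nearest protein-coding gene of a peak, 6 of 8 were found, against 24.6%. The stretch of genome nearest to a gene is long where neighbours are far, and among the 8411 protein-coding genes with a stretch at least as long as the shortest of the 8 the share was 43.1%. The genes differed widely among themselves. Tfcp2l1 and Prdm14 had 5 peaks within 100 kb each, a number reached by 1.94% of protein-coding genes, and Tbx3 had 4, reached by 4.73%. Nr5a2 and Zfp42 had 2 each, reached by 26.3%, and Esrrb, Nr0b1 and Tcl1 had 0. As the nearest gene, Tbx3 had 7 peaks, a number reached by 0.188% of protein-coding genes, and Nr5a2 had 6, reached by 0.349%. Tfcp2l1 and Prdm14 had 5 each (0.731%), Esrrb 3 (3.38%) and Zfp42 2 (8.66%). The median over the 8 genes was 2 peaks within 100 kb, against 1 over all protein-coding genes, and 4 against 0 by the nearest-gene rule. The windows of 100 kb on either side of the 8 start sites held 11.25 peaks per Mb, while the autosomes held 3.59 and chromosome X 0.856. Per gene, windows of the same size held a mean of 2.25 peaks for the 8 genes and 1.00 for all protein-coding genes.

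**Figure D1:**
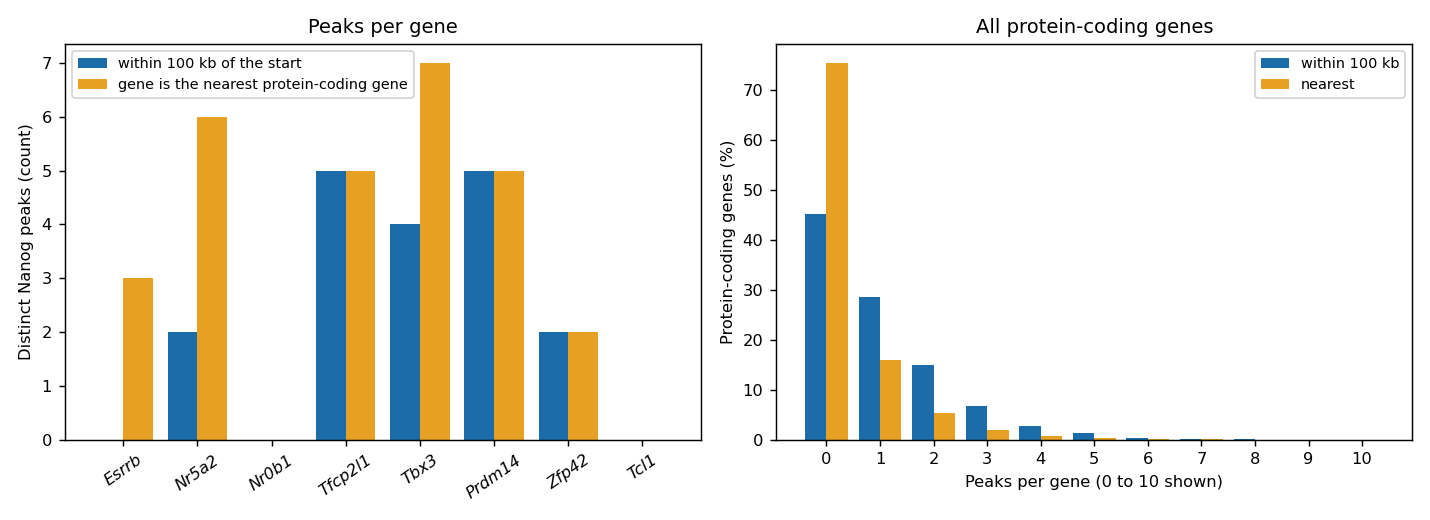
Left, distinct Nanog peaks per gene within 100 kb of the gene start (blue) and with the gene as nearest protein-coding gene (orange). Right, the percentage of the 21755 protein-coding genes with 0 to 10 peaks by the same 2 rules. Tfcp2l1 and Prdm14 reached 5 by both rules, Tbx3 reached 7 by the nearest-gene rule, and Nr0b1 and Tcl1 had 0 by both.

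Of the 3 nuclear receptor genes, Esrrb (ENSMUSG00000021255.17, chromosome 12, 86361117 to 86521628, plus strand) had 3 peaks, all inside the gene and all beyond 100 kb from its annotated start. They spanned 86470927 to 86471273 in intron 2, and 86498886 to 86499120 and 86501553 to 86502238 in intron 3, of the 6 introns of transcript ENSMUST00000110204.8. Their centres lay 110.0, 137.9 and 140.8 kb downstream of the TSS. The count of 0 within 100 kb depended on the start that was used, which was the farthest upstream. Other protein-coding Esrrb transcripts start 60.5 kb into the gene, among them ENSMUST00000110204.8, and 60.8 kb into it. A further protein-coding transcript, ENSMUST00000167891.1, starts 109 kb into the gene, and the first peak was centred 983 bp after that start. Counted from the starts of every transcript, all 3 peaks were within 100 kb. The last peak, 686 bp wide, was the widest of the 28 and ranked 102 by width among the 8735 peaks on chromosomes 1 to 19 and X. The peak beside it, 2.43 kb away, was 235 bp wide, the minimum of the list, which 778 peaks shared. The next protein-coding TSS, that of Vash1, was at least 177 kb from each.

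Nr5a2 (ENSMUSG00000026398.14, chromosome 1, 136842571 to 136960448, minus strand) showed the opposite arrangement, with no peak inside the gene and all 6 peaks upstream. The closest spanned 136977697 to 136977998, 17.4 kb upstream of the TSS, and the next spanned 137051555 to 137051899, 91.3 kb upstream. The other 4 lay 214.1, 427.3, 430.0 and 458.1 kb upstream. No other protein-coding TSS was within 352.9 kb of any of the 6. The stretch nearest to Nr5a2 was 775.4 kb long, and 2.45% of protein-coding genes had a longer one, so that its 6 peaks came to 7.74 per Mb. All 6 were intergenic, the peaks at 427.3 and 430.0 kb formed a pair within 3.05 kb, and snRNA or snoRNA genes lay closer to each of the 6 than Nr5a2 did.

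Nr0b1 (ENSMUSG00000025056.4, chromosome X, 86191764 to 86195947, plus strand) lacked a peak by either rule. Its closest peak spanned 86016637 to 86016915, 175.0 kb upstream and 27.4 kb from the TSS of Samt3. Of the 948 protein-coding genes of chromosome X, 23.6% had a peak within 100 kb. Peaks were sparse on this chromosome as a whole, with a mean of 0.171 per 200 kb against 0.717 on the autosomes, so that a gene without a peak was the usual case there.

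Tfcp2l1 (ENSMUSG00000026380.10, chromosome 1, 118627945 to 118685168, plus strand) had the most compact set, 5 peaks within 23.002 kb on both sides of its TSS. A promoter-proximal pair spanned 118625404 to 118625699 and 118626489 to 118626785, with centres 2394 and 1308 bp upstream and 789 bp between their edges. The remaining 3 lay in intron 2 of 14, from 118642271 to 118642582, 118645705 to 118645961 and 118648084 to 118648405, with centres 14.5, 17.9 and 20.3 kb downstream. The next protein-coding TSS, that of Clasp1, was at least 236 kb away from each. When peaks were joined at the distance in common use for super-enhancers, which at the 8 genes joined gaps of up to 9.74 kb and left those from 14.4 kb, they formed a stretch of 2 and one of 3. With 25 kb they formed a single stretch of 5. Their widths, 257 to 322 bp, were close to one another. The distal member of the proximal pair carried an Oct octamer 8 bp from its centre, and the intronic peaks carried Sox motifs (1 and 2 copies) and, in the last, 2 copies of the motif of Tfcp2l1 itself.

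Tbx3 (ENSMUSG00000018604.18, chromosome 5, 119670669 to 119684724, plus strand) had 7 peaks spread over 400.1 kb, 3 downstream of the TSS and 4 upstream. Inside the gene, a peak from 119680008 to 119680290 had its centre in intron 5 of 6, 9.48 kb downstream of the TSS, and a peak from 119680879 to 119681174 had its centre in coding exon 6 of 7, 10.4 kb downstream. It was the single one of the 28 centred in an exon. A noncoding Tbx3 transcript starts 100 bp from the centre of the first of them. Another peak, 119709963 to 119710233, lay 39.4 kb downstream, beyond the gene. Upstream peaks lay 90.9 kb away in an intron of the antisense gene Tbx3os1, and 184.3, 295.6 and 360.3 kb away between genes. The stretch nearest to Tbx3 covered 636.0 kb, and its 7 peaks came to 11.01 per Mb. The TSS of Tbx5, the next protein-coding gene, was at least 122.6 kb from each.

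Prdm14 (ENSMUSG00000042414.7, chromosome 1, 13113457 to 13127163, minus strand) had 5 peaks, all outside the gene. The closest was upstream, within 5 kb of the TSS, and one from 13132116 to 13132418 was centred 5104 bp upstream, just beyond 5 kb. The other 3 lay past the 3' end, at 42.2, 52.4 and 67.1 kb downstream of the TSS. The first of these spanned 13084694 to 13085306 and, with 613 bp, ranked 223 by width. The lincRNA gene Gm29283 hosted the next in an intron, and the gene model Gm37162 started 138 bp from the centre of the last. Prdm14 had the densest set per length among the 8 genes, 26.2 peaks per Mb of its nearest stretch of 190.7 kb, followed by Tfcp2l1 with 15.0 and Esrrb with 13.7.

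Zfp42 (ENSMUSG00000051176.6, chromosome 8, 43295063 to 43306980, minus strand) had the peak closest to the 5' end of its annotated gene, from 43307034 to 43307270 and centred at 172 bp upstream. It was narrow, with 237 bp against a minimum of 235 bp, and 90.0% of all peaks were wider. RefSeq promoter windows, reaching from 250 bases before to 50 after a start, were at hand for 6 of the 8 genes (all but Tbx3 and Prdm14), and the Zfp42 window was the single one that a peak overlapped, by 226 bases. The Klf, octamer and Nr5a2 letters printed above lay 185, 211 and 243 bp upstream of the TSS. Of 32851 RefSeq promoters, 16.04% held the Klf letters, 1.74% the octamer and 0.591% the Nr5a2 letters. The other Zfp42 peak, 43353797 to 43354067, lay 47.0 kb upstream, and its whole window was soft-masked as repeat sequence (100%), which was the case for no other of the 28.

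Tcl1 (ENSMUSG00000041359.14, chromosome 12, 105216750 to 105222793, minus strand) had no peak by either rule. The closest spanned 105087321 to 105087700, 135.3 kb past its TSS on the 3' side, and had Glrx5 as its nearest protein-coding gene at 54.8 kb. Including it, 4 peaks lay within 250 kb of Tcl1, 3 nearest to Glrx5 and 1 to Syne3. On chromosome 12, 51.6% of the 643 protein-coding genes had a peak within 100 kb. The 100 kb limit fell into a gap of the data, with the Tbx3 and Nr5a2 peaks at 90.9 and 91.3 kb just inside and the Esrrb and Tcl1 peaks at 110.0 and 135.3 kb just outside.

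**Figure D2:**
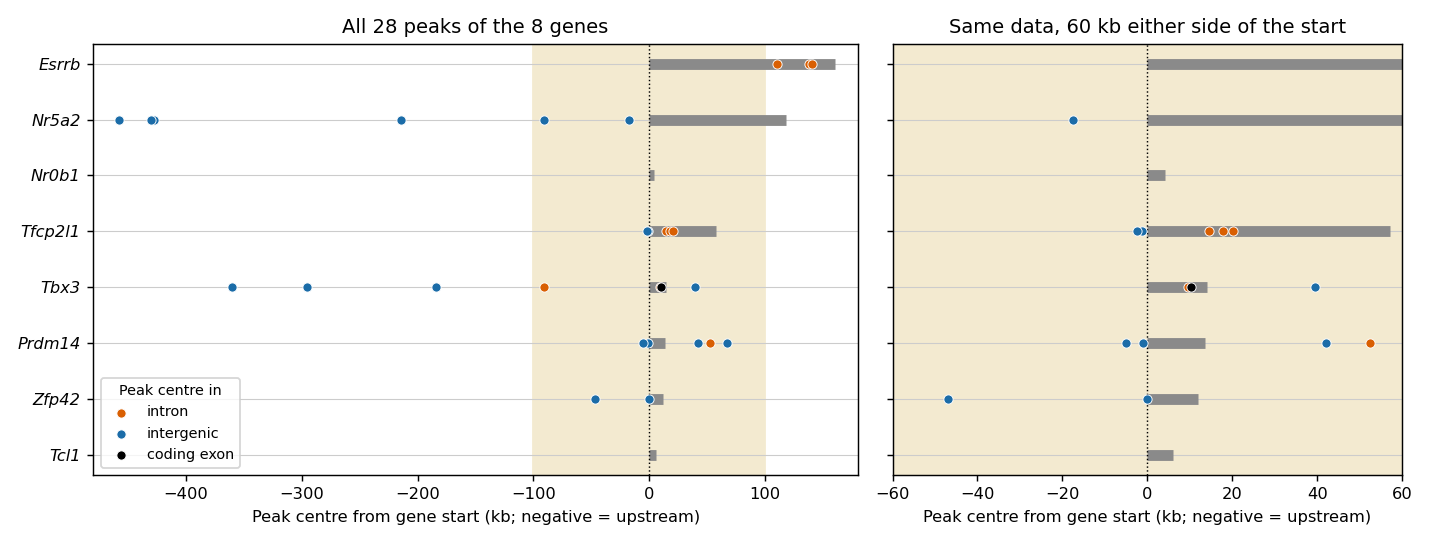
Position of the 28 peaks relative to the start of each gene (kb, negative values upstream), over the full range (left) and over 60 kb on either side (right). Grey bars are the annotated gene, dots are peak centres coloured by the annotation there, and the shaded area lies within 100 kb. Esrrb peaks sit in the 3' part of the gene, Nr5a2 peaks are all upstream, and Tfcp2l1 peaks fall on both sides of the start within 23.002 kb.

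Of the 28 centres, 18 (64.3%) were intergenic, 9 (32.1%) intronic and 1 in an exon, whereas over all 8735 peaks 46.3% were intergenic, 47.5% intronic and 6.24% exonic. For the 18 peaks within 100 kb the intronic share was 33.3% (95% interval 13.3 to 59.0), which includes the share of all peaks, so that no difference was detectable. The intronic peaks belonged to few genes, with 3 in Esrrb, 3 in Tfcp2l1 and 1 in Tbx3, and the remaining 2 in noncoding genes. Within 100 kb, 9 of 18 peaks were upstream of the TSS, 50.0% (interval 26.02 to 73.98) against 51.1% of the 21767 peak-gene pairs of all protein-coding genes. Neighbouring peaks were frequent. At the same joining distance, 15 of the 28 (53.6%) had a neighbour, against 24.1% of all peaks. Within 100 kb, 61.1% of the 18 had one (interval 35.7 to 82.7), all at Tfcp2l1, Prdm14 and Tbx3. Leaving out 1 gene at a time gave 46.2% of 13 peaks (without Tfcp2l1) to 68.75% of 16 (without Nr5a2 or Zfp42). Peaks of the same stretch are neighbours of each other, so that they are not independent and the interval is too narrow. The 15 formed 7 stretches of 2 or 3 peaks. Each of these stretches consisted of peaks of a single gene, namely 2 at Tfcp2l1, 2 at Prdm14 and 1 each at Esrrb, Nr5a2 and Tbx3. The shortest gap was 588 bp, between the intronic and the exonic peak of Tbx3. None of the 28 was among the 122 intervals of these chromosomes that the list repeats.

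Peaks near the start sites were of ordinary or small width. The 18 peaks within 100 kb had a median width of 296.5 bp (interval of the median 277 to 312 bp), against 319 bp over all peaks, and 14 of them were narrower than that. The 10 peaks beyond 100 kb had a median of 363 bp, and 2 of them were narrower than 319 bp. The 6572 other peaks within 100 kb of any protein-coding TSS had a median of 318 bp, and 3291 were narrower than 319 bp. A link between width and distance was not tested. The 4 peaks within 5 kb of a TSS were 237 bp (Zfp42), 280 bp (Prdm14), 296 and 297 bp (Tfcp2l1) wide. The 4 widest lay at Esrrb (686 bp), Prdm14 (613 bp) and Tbx3 (518 and 453 bp), all at least 42.2 kb from the start of their gene. Width depends on the fragment length and on the peak caller and is not a strength. The base composition was ordinary, with a median GC content of 48.7% in the windows of the 28 peaks and 47.7% over all peaks, ranging from 38.0% (Nr5a2 at 458.1 kb and Tbx3 at 90.9 kb) to 61.0% (Tbx3 exon 6).

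**Figure D3:**
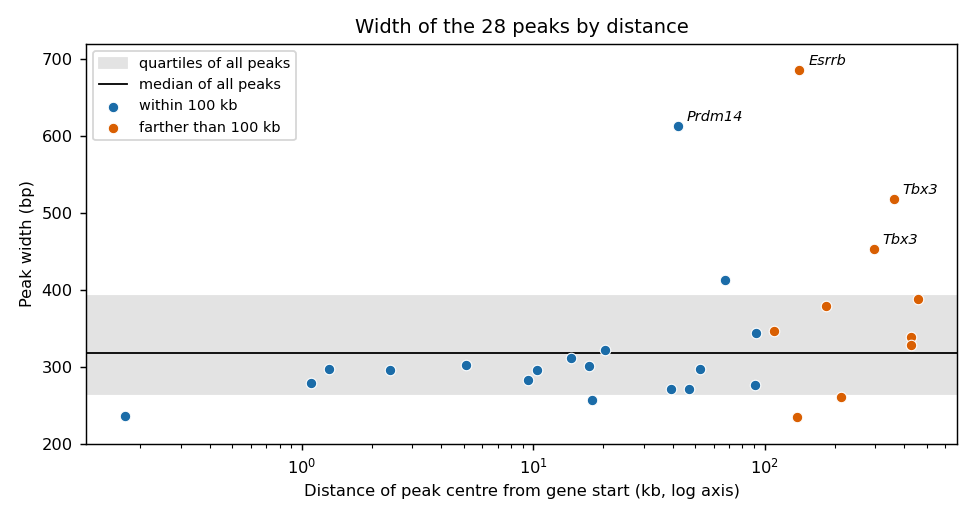
Width (bp) of each of the 28 peaks against the distance of its centre from the gene start (kb, log axis), in blue within 100 kb and in orange beyond. The line and the grey band give the median and quartiles of all 8735 peaks (319, 265 and 393 bp). Within 100 kb, 14 of 18 dots lie under the line, and 2 of 10 beyond.

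Motifs were searched on both strands as exact letters in 300 bp around each centre. They were Sox (CCATTGT or CCTTTGT), Oct octamer (ATGCAAAT), Nanog core (CCATTA), Klf (GCCACACCC, GCCACGCCC, GCCCCACCC or GCCCCGCCC), Esrrb (TCAAGGTCA), Nr5a2 (TCAAGGCCA), Prdm14 (GGTCTCTAA), Tbx (AGGTGTGA), Stat (TTCCNGGAA), Tfcp2l1 by its paired half-sites and the Oct4-Sox2 composite with at most 2 mismatches, which overlaps the octamer. Sox was the most frequent, in 6 of 28 windows (21.4%, 95% interval 8.30 to 41.0), against 26.7% of all peaks and 10.4% of flanking windows of the same length. The Nanog core and Klf motifs were each in 4 (14.3%, interval 4.03 to 32.7), against 15.96% and 8.44% of all peaks and 11.4% and 2.05% of flanking windows. The octamer and the Tfcp2l1 motif were each in 3 (10.7%, interval 2.27 to 28.2), against 5.36% and 6.53% of all peaks and 1.93% and 3.57% of flanking windows. The Nr5a2 motif, in the Zfp42 promoter, and the Tbx motif, in the first Esrrb peak, were each in 1 window (3.57%), against 1.67% and 2.59% of all peaks and 1.81% and 1.28% of flanking windows, so that the Nr5a2 motif was no more frequent in peaks than beside them.

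The composite, Esrrb, Prdm14 and Stat motifs were in 0 of 28, which allows a share of up to 10.7% by the limit of 3 counts (the exact 95% interval reaches 12.3%), while all peaks held them in 2.07%, 3.25%, 0.263% and 1.09%. For each of the 11 motifs the share over all peaks lay inside the interval of the 28, so that no difference was detectable with this number of peaks. No searched motif was present in 11 of the 28 windows (39.3%), against 43.9% of all peaks, and 3 kinds together occurred in 2 windows, the first Esrrb peak and the Zfp42 promoter peak (7.14% against 2.12%). Letters of factors encoded by the 8 genes were thus found in the last Tfcp2l1 peak (Tfcp2l1), in Tbx3 exon 6 and 360.3 kb upstream of Tbx3 (Tfcp2l1), at Esrrb (Tbx) and at Zfp42 (Nr5a2). These letters describe the sequence and are not evidence of binding by those factors.

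**Figure D4:**
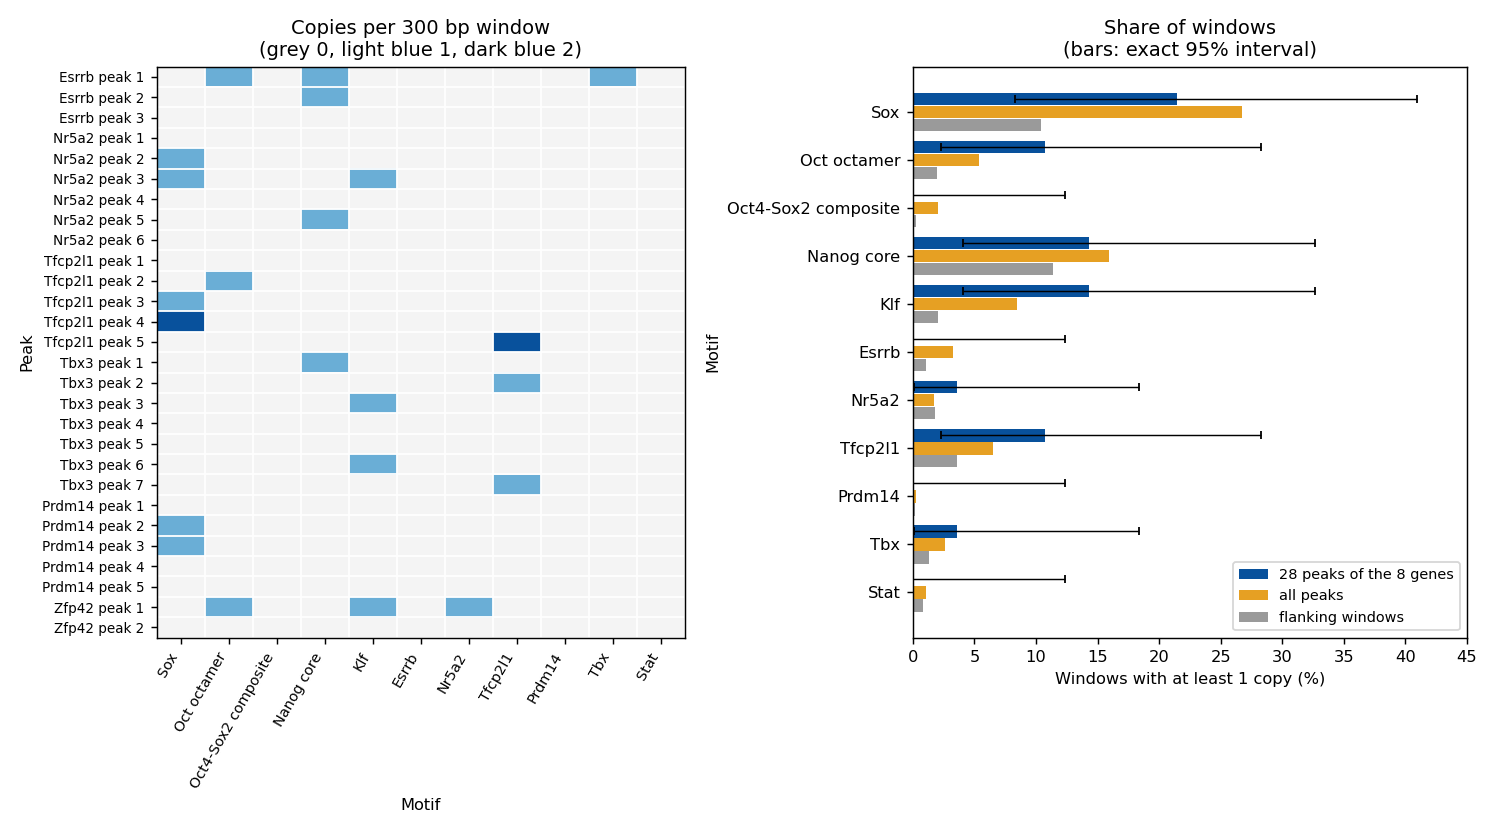
Left, copies of each of 11 motifs (columns) in the 300 bp window of each of the 28 peaks (rows, numbered outward from the gene start). Right, the percentage of windows with at least 1 copy in the 28 peaks (blue, with exact 95% intervals), in all 8735 peaks (orange) and in flanking windows (grey). Every orange bar ends inside the interval of its blue bar, and the composite, Esrrb, Prdm14 and Stat columns are empty.

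The 8 genes were set beside 26 other genes of the core and naive network. All 26 had a peak within 100 kb, 14 within 5 kb, and 24 were nearest to at least 1 peak, with a median of 3 peaks within 100 kb and a closest peak at a median of 4.93 kb. For the 8 genes these values were 5, 3 and 6 genes, 2 peaks and 13.4 kb. By the nearest-gene rule the order of the medians was the other way, with 4 peaks for the 8 genes, 2 for the 26 and 1 for the 14 formative and primed genes described next. The means were 3.5, 3.23 and 1.93, and the share of genes nearest to a peak stayed lower for the 8 (75%) than for the 26 (92.3%). The median length of the nearest stretch was 204.6, 75.98 and 138.0 kb. Of the 26, 8 had at least 5 peaks within 100 kb, as Tfcp2l1 and Prdm14 did, and the range was 2 to 8. Of 14 genes of the formative and primed states, 10 had a peak within 100 kb and 4 within 5 kb, with a median of 2 peaks and a closest peak at 9.44 kb. Their range was 0 to 7 peaks, and 2 of the 14 had at least 5. Of all protein-coding genes, 54.8% had a peak within 100 kb and 6.25% within 5 kb, and 24.6% were nearest to one. Within 100 kb the shares were 62.5% of the 8, 100% of the 26 and 71.4% of the 14. The differences between these short lists were not tested, since the genes were picked with results of these data known.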

How the data were processed

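Chromatin of Bruce-4 ESCs was immunoprecipitated with an anti-Nanog antibody and sequenced, with 1 sample and 1 input. Per the study's methods, the authors inspected reads with FastQC, aligned them to mm10 with Bowtie2, removed low-quality, duplicate, blacklisted and mitochondrial reads with BEDtools and SAMtools, and called peaks with MACS2. The threshold is not given in the sources used here. The deposited list holds chromosome, start and end only, so that it does not give the reads behind a peak or its strength, and duplicate removal and the threshold set which weak sites are listed.

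From it, each distinct interval was counted once (8737 of 8860 lines), 8735 on chromosomes 1 to 19 and X. Genes came from GENCODE M21 and sequence from GRCm38, the assembly that mm10 denotes. The TSS was the 5' end of the annotated gene, distance ran from the middle base, and the nearest gene was sought up to 1000 kb. The annotation was read there, exons (coding ones first) before introns. Flanking windows for motifs began 1 kb from a peak's edge and were left out where they met a peak or an N. Intervals are exact Clopper-Pearson, or order-statistic for a median, at 95%, and cover counting error only. Counting and motif functions were tested on simulated data. Python 3.11.15 was used. No test was run, since 1 library has no replicate. The text names the 8 genes, every peak of theirs, the genes nearest to or hosting those peaks, and prints the window of the closest peak of 5 genes, that of Prdm14 being not reported here. Genes next in distance, and those beside the closest peaks of Nr0b1 and Tcl1, were named after their values were seen. Members and lists were chosen with earlier results of these data known.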

Additional observations from a re-analysis of the deposited data

How the results depend on the processing

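Alternatives gave 205 further values, of which 194 lay inside the 95% interval of the reported share or median, or within 1.5 times the reported count, and 11 moved. Many of the 194 could not have moved, so that their number does not measure robustness. Leaving out Esrrb, Nr0b1 or Tcl1 removed none of the 18 peaks. None of the 28 peaks was on a repeated line, and merging peaks within 300 bp could not act with a shortest gap of 588 bp. The count of genes with a peak within 5 kb rose from 3 to 5 with the TSS of every transcript, adding Esrrb and Tbx3. The Tbx3 start closest to a peak is that of a noncoding transcript. No share over all protein-coding genes was counted in this way. The 6.25% given above holds for 1 start per gene and is no background for the 5. When peaks narrower than the median were left out, so that fewer were counted, peaks within 100 kb fell to 4, genes with one within 100 kb to 3, genes with one within 5 kb to 0 and peaks nearest to the genes to 12. A limit of 250 kb gave 30 peaks and all 8 genes. The share of all protein-coding genes with a peak at that limit was not counted, and at 100 kb it was 54.8% already. All 8 genes having one is therefore not read as a property of the group. The peaks so added at Nr0b1 and Tcl1 were nearest to Samt3, Glrx5 or Syne3. Peaks nearest to the genes numbered 8 in place of 28 when noncoding genes and pseudogenes also competed, and 18 with a limit of 100 kb. Without Tbx3 the share of the 18 peaks with a Nanog core motif was 0, and without Zfp42 that of the Nr5a2 motif was 0, since 1 peak carried each. The share with a neighbour at the TSS of every transcript was chosen after seeing the data. No paired analysis was possible because 1 sample has values. The list holds neither read counts nor sites under the threshold, so that the absence of peaks at Nr0b1 and Tcl1 cannot be told from weak binding.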
